A study of Mus musculus with 157 samples.

Results

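Hnrnpa2b1, Hnrnpc, Elavl1 and Fmr1 encode RNA-binding proteins linked to N6-methyladenosine (m6A), the methyl mark that the METTL3 complex places on adenosines of RNA. They were chosen by name, as the rows with these symbols in every table, and all 4 were found among 36102 gene symbols (among 17824 in the table of new RNA). The series holds 157 mouse samples. Mettl3 -/- cells of 7 types (MkP, MEP, GMP, CMP, MPP, ST.HSC and LT.HSC) were set against wild-type cells of the same types, with 2 input and 2 anti-m6A precipitated (IP) libraries for each genotype and type. Igf2bp2 -/- LT.HSC were set against wild-type LT.HSC, with 2 libraries each. The wild-type atlas had 2 input and 2 IP libraries in each of 16 cell types: the 7 above, the progenitors LMPP and CLP, and Neutrophil, Monocyte, Erythroid, DC, CD8, CD4 and B_cell populations. All of these were untreated. SLAM-seq, which reads RNA made during 4-thiouridine (4sU) labelling as T-to-C changes, covered wild-type cells of 6 types after 3 h (the labels give 100 mM 4sU), and wild-type LT.HSC and MkP cultured with 10 µM 4sU for 24 h and then chased in uridine for 0.5 to 24 h. The sources used here do not give the strain, age or sex, or how the alleles were deleted. As no label ties a replicate to its own animal, the p-values cover the spread between libraries alone, and that spread may be technical.

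HNRNPA2B1 and HNRNPC are nuclear heterogeneous nuclear ribonucleoproteins that coat new transcripts and act in splicing and RNA processing. HNRNPC binds runs of uridine that m6A can expose by loosening RNA structure, and HNRNPA2B1 has been described as a nuclear reader of m6A and a factor in microRNA processing. ELAVL1 (HuR) binds AU- and U-rich elements in the 3′ ends of messenger RNAs and stabilises many of them. FMRP, the product of Fmr1, represses translation and accompanies RNA granules, binds many m6A-marked transcripts, and is lost in fragile X syndrome.

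Depth ran from 8.23 to 21.5 M (mega) reads in atlas inputs, 10.8 to 24.6 in atlas IP, 3.42 to 20.2 in Mettl3 set inputs, 0.819 to 22.9 in Mettl3 set IP and 4.68 to 19.98 in the Igf2bp2 set. Several libraries went against their labels. The atlas inputs labelled CD4 had Cd8a values of 12002 and 11930 with Cd4 at 7.77 and 13.7, whereas those labelled CD8 had Cd8a at 80.3 and 30.9 with Cd4 at 1510 and 1482. Neutrophil markers took 22.3% and 21.7% of the Monocyte libraries, against 8.57% and 8.84% of the Neutrophil libraries, and monocyte markers took 0.258% and 0.227% of the Monocyte libraries, against 0.265% and 0.263% of the Neutrophil libraries. The part of these marker levels in the results below was not tested. Of 12 marker lists, 6 were highest in their own type, and no marker was at 0 in its own type. Mettl3 RNA did not separate the genotypes: its normalised value ranged from 274 to 931 (median 489) in libraries labelled Mettl3 -/- and from 127 to 5370.5 (median 428) in wild-type libraries, and the Mettl3 -/- libraries lay below both wild-type libraries in 0 of 7 types. Igf2bp2 had 61 and 81 counts (13.03 and 12.5 CPM, counts per M) in the libraries labelled Igf2bp2 -/-, against 142 and 263 counts (7.11 and 53.5 CPM) in wild type. Which exons were deleted is not stated, so these totals do not check the labels.

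The 4 genes start from CpG-rich promoters, and 3 of them start next to a gene on the other strand. RefSeq (GRCm38.p6) places Hnrnpa2b1 on chromosome 6 (51460434 to 51470048, minus strand), 105 bases from Cbx3, the gene of the heterochromatin protein HP1γ. Hnrnpc lies on chromosome 14 (52073377 to 52104039, minus strand). Elavl1 lies on chromosome 8 (4284781 to 4325140, minus strand), 64 bases from the chemokine gene Ccl25. Fmr1 lies on the X chromosome (68678536 to 68717963, plus strand), 136 bases from Fmr1os, a long noncoding RNA gene on the opposite strand. The bases just before the outermost start of each gene are shown (for Hnrnpa2b1 96 of the 105 bases), on the gene's strand from 5′ to 3′, because they show how short the gap between these paired starts is and which motifs lie in it. Capitals mark matches on either strand to the CCAAT box (those letters), the GC box with letters GGGCGG, the core TGACGT of the cyclic AMP response element, the E-box with letters CACGTG, or the core of the NRF1 site, which is GCGCA followed by its reverse complement, and no match overlapped another. They cover chr6:51470049-51470144, chr14:52104040-52104271, chr8:4325141-4325204 and chrX:68678400-68678535.
Hnrnpa2b1: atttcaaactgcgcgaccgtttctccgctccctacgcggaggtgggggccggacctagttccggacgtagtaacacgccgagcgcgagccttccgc
Hnrnpc: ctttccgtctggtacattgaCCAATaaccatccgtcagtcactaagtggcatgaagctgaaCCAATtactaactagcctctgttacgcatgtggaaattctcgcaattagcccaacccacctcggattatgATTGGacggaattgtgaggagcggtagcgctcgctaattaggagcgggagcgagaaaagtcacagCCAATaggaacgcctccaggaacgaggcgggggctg
Elavl1: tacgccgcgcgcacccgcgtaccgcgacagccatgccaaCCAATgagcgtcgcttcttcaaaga
Fmr1: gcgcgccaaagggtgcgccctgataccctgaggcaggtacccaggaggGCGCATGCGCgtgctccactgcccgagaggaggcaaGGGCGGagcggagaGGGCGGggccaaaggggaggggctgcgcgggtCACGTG

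The Hnrnpc stretch held 4 CCAAT matches, 1 of them on the other strand, and at least 1 match stood in 32.3% of the windows of that length among 32851 RefSeq promoters. Elavl1 had 1 CCAAT match in 64 bases, a length at which 11.8% of promoters hold one. Fmr1 had 2 GGGCGG matches (27.8% of promoters hold one at its length), 1 CACGTG (4.00%) and 1 core of the NRF1 site (0.615%). None of the 5 motifs was found in the 96 bases of Hnrnpa2b1. CpG pairs numbered 14, 14, 10 and 13 in the stretches of Hnrnpa2b1, Hnrnpc, Elavl1 and Fmr1, against promoter medians of 3, 5, 2 and 3 at the same lengths. GC content was 64.6%, 51.3%, 62.5% and 72.8%, against medians of 55.2%, 52.6%, 54.7% and 54.4%, so that Hnrnpc alone was not above its median. A match is a description of these letters and not of a bound site.

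Across the atlas, Hnrnpa2b1 had the widest range of the 4 genes. Its deposited normalised value (the read count over the library's size factor) was 108744 and 93333 in B_cell, and 82250 and 106142 in Monocyte. Erythroid followed with 64842 and 60040.4. At the low end stood ST.HSC with 11018 and 8827, and LT.HSC with 8133 and 6324. These extremes did not overlap, and the mean of B_cell was 13.98-fold that of LT.HSC. The 11 other types lay between 8736 and 63888, with GMP (63888 and 24834), CMP (49367 and 15576) and MPP (22955 and 8736) each split widely between their 2 libraries. All 4 members differed among the 16 types by the limma F test on log2(value + 1), with adjusted p of 1.81e-06 for Hnrnpa2b1, 1.13e-04 for Hnrnpc, 1.62e-05 for Elavl1 and 5.81e-05 for Fmr1. As 92.8% of all tested genes passed it, that count is close to the background.

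**Figure D1:**
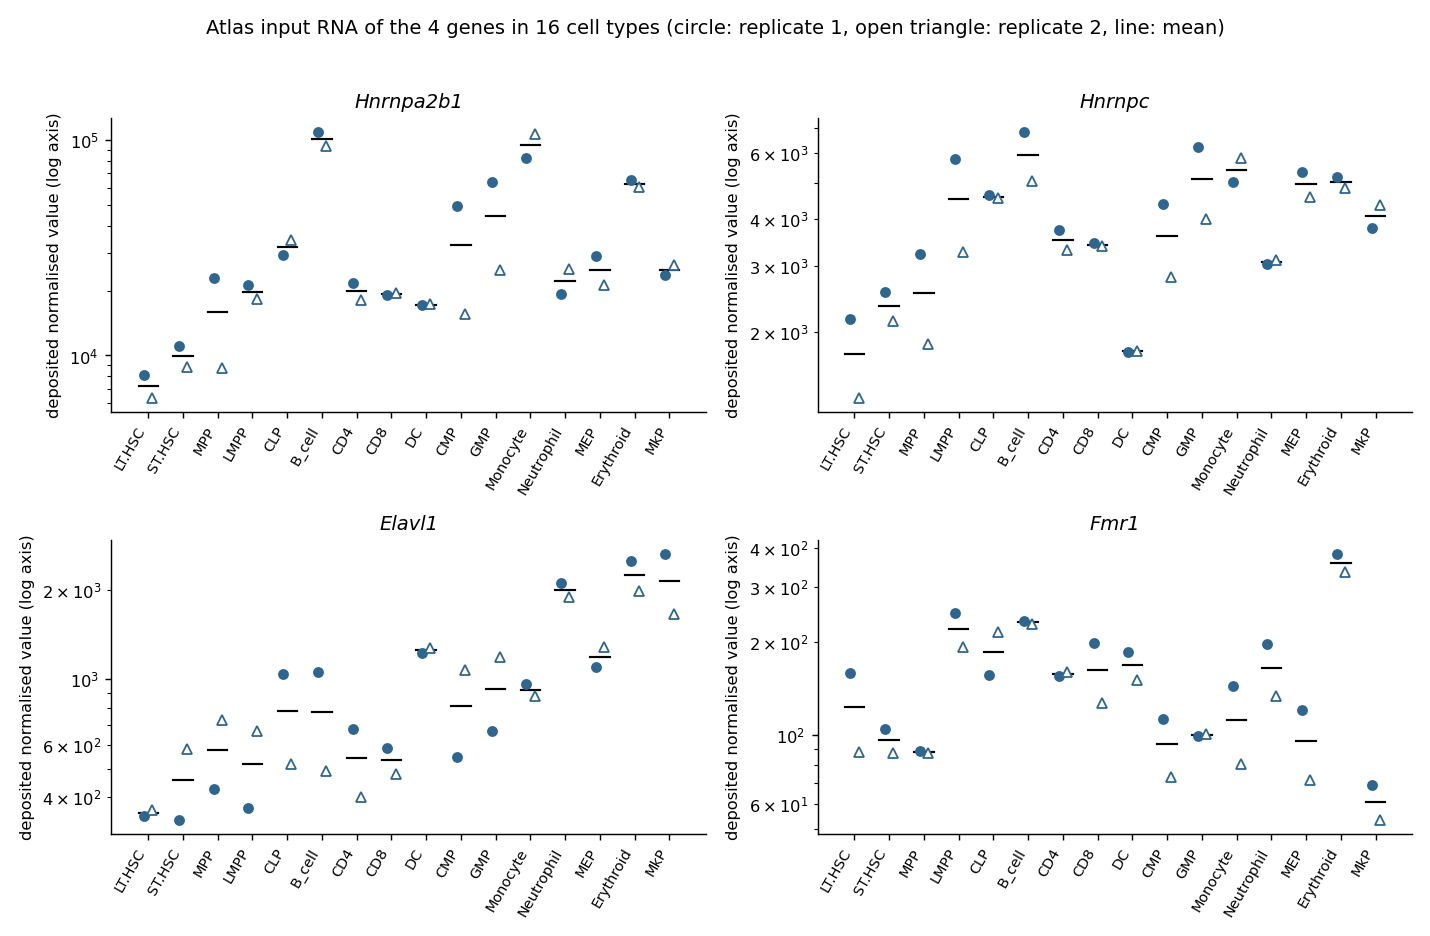
Deposited normalised input values of Hnrnpa2b1, Hnrnpc, Elavl1 and Fmr1 (log axis) in the 16 wild-type cell types, 2 libraries per type (circle, replicate 1; triangle, replicate 2) with their mean as a line. B_cell and Monocyte are highest for Hnrnpa2b1 and LT.HSC is lowest for the first 3 genes, whereas MkP is lowest for Fmr1; scaled to library totals, the called differences of Monocyte and Erythroid from the other types turn.

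Each type was then set against the mean of the other 15. Of 64 such comparisons 18 passed (limma, adjusted p below 0.05), against 36.6% over all genes. Hnrnpa2b1 was higher in B_cell by a log2 difference of 2.10 (SE 0.35, limma adjusted p = 2.34e-05), in Monocyte by 1.99 (SE 0.35, adjusted p = 3.7e-05) and in Erythroid by 1.37 (SE 0.35, adjusted p = 0.00208). It was lower in LT.HSC, with a difference of −1.96 (SE 0.35, adjusted p = 9.22e-05), and in ST.HSC, with −1.47 (SE 0.35, adjusted p = 0.00206). These are bulk libraries, in which a different make-up of a population and a different amount of RNA per cell cannot be told apart. Leaving out ST.HSC 2 took the ST.HSC call away, and the Monocyte and Erythroid differences changed sign with libraries scaled to their totals.

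Hnrnpc varied less, 3.41-fold between the means of its highest and lowest types. It was 6847 and 5051 in B_cell and 5034 and 5822 in Monocyte, and at the other end 1767 and 1780 in DC and 2159 and 1328 in LT.HSC. The B_cell libraries lay above both DC and both LT.HSC libraries. B_cell was higher by 0.76 (SE 0.24, limma adjusted p = 0.0105), Monocyte by 0.64 (SE 0.24, adjusted p = 0.0281), and DC (−1.08, SE 0.24, adjusted p = 9.36e-04), LT.HSC (−1.15, SE 0.24, adjusted p = 5.36e-04) and ST.HSC (−0.66, SE 0.24, adjusted p = 0.0407) were lower. The B_cell call was lost without B_cell 1, and the LT.HSC call without LT.HSC 2. The Monocyte call was lost without either of its libraries. The ST.HSC call was lost without either of its own, and also without CD4 1, MEP 1, or either library of DC or Neutrophil. TMM scaling moved the Monocyte difference to 0.40 (adjusted p = 0.133), as did edgeR on whole reads recovered from the values (0.40, edgeR adjusted p = 0.170). The ST.HSC call was also lost with no filter on low values (adjusted p = 0.0512) and without the Monocyte libraries (adjusted p = 0.0615), and scaling to library totals turned those of Monocyte and ST.HSC.

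Elavl1 followed another order, with its high values in myeloid and erythroid-megakaryocytic types. It stood at 2499 and 1982 in Erythroid, 2639 and 1652 in MkP, and 2106 and 1886 in Neutrophil. It was 347 and 362 in LT.HSC and 335 and 583 in ST.HSC, and the 6 libraries of the high types lay above all 4 of these. Erythroid was higher by 1.51 (SE 0.31, limma adjusted p = 2.69e-04), MkP by 1.41 (SE 0.31, adjusted p = 6.15e-04) and Neutrophil by 1.34 (SE 0.31, adjusted p = 0.00112), and LT.HSC (−1.32, SE 0.31, adjusted p = 0.00172) and ST.HSC (−0.98, SE 0.31, adjusted p = 0.0191) were lower. The calls of MkP and ST.HSC were lost when MkP 1 or ST.HSC 1 was left out, and the Erythroid difference changed sign with library-total scaling.

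Fmr1 was high in Erythroid, with values of 383 and 335, and low in MkP, with 69.0 and 53.2. B_cell libraries had 234 and 228. The other 13 types ranged from 71.5 to 247, the top of that range in LMPP. Erythroid was higher by 1.49 (SE 0.27, limma adjusted p = 4.77e-05) and B_cell by 0.82 (SE 0.27, adjusted p = 0.0129), and MkP was lower, with a difference of −1.22 (SE 0.27, adjusted p = 5.35e-04). The B_cell call was lost when either of its libraries was left out, and the Erythroid difference changed sign with library-total scaling. LT.HSC, with 159 and 88.3, was not called for Fmr1.

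The size factors mattered for these orders. The deposited values summed to 83.1 and 113 M in Monocyte and to 36.6 and 42.7 M in Erythroid, but to 7.51 and 6.81 M in LT.HSC. When given as CPM (the value as a share of each library's deposited sum, in parts per M), Hnrnpa2b1 was still highest in B_cell (5403 and 4338), but Monocyte (989 and 937) then lay beside LT.HSC (1082 and 929). On that scale MEP was highest for Hnrnpc (485 and 405), MkP for Elavl1 (238 and 112) and LMPP for Fmr1 (20.2 and 24.0). Monocyte was lowest for all 4 genes, at 60.6 and 51.4 for Hnrnpc, 11.6 and 7.75 for Elavl1 and 1.72 and 0.714 for Fmr1.

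**Figure D2:**
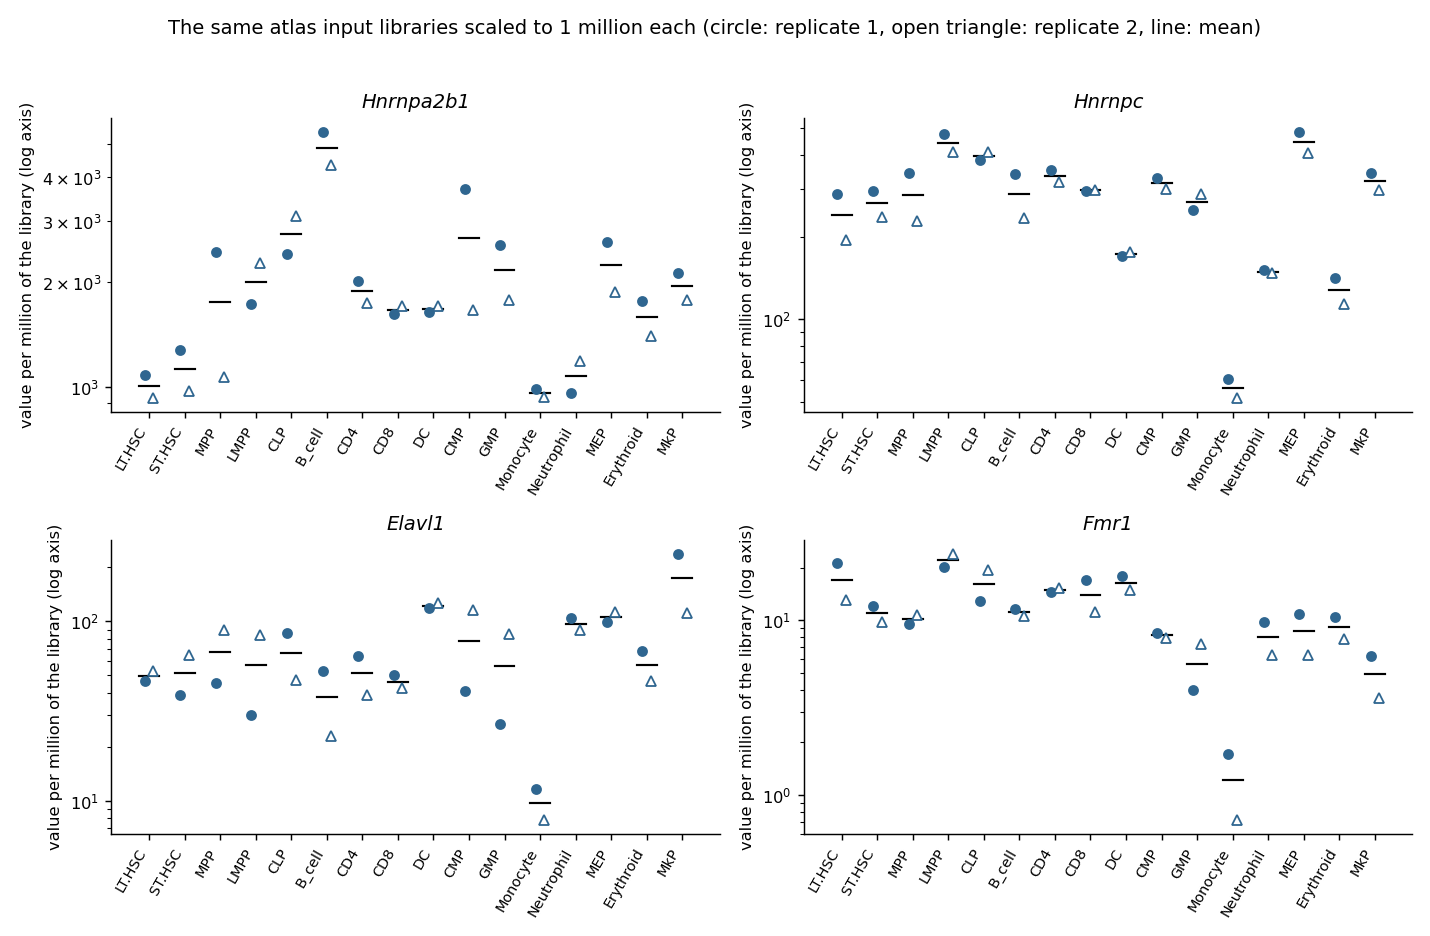
The same 4 genes in the same 32 libraries, as CPM of each library's deposited sum (log axis; circle, replicate 1; triangle, replicate 2; line, mean). Monocyte is lowest for each gene, and the top types are B_cell, MEP, MkP and LMPP.

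With libraries scaled to their totals, 6 of the 18 called differences changed sign. Hnrnpa2b1 was then lower in Monocyte (−0.94, limma adjusted p = 9.75e-04) and Hnrnpc lower in Monocyte (−2.29, adjusted p = 1.59e-11), where the median gene moved to −2.51, against −0.23 with the deposited scaling. The Erythroid differences became −0.18, −0.0326 and −0.0455 for Hnrnpa2b1, Elavl1 and Fmr1, none called, with the median gene at −1.42 against −0.17. Hnrnpc in ST.HSC became 0.11. In LT.HSC the median gene moved to 1.21, against 0.17, and Hnrnpa2b1 remained lower at −0.87, whereas Hnrnpc (−0.06) and Elavl1 (−0.23) were no longer called. The calls that kept their direction on this scale and passed were those of Hnrnpa2b1 in B_cell (1.55), LT.HSC and ST.HSC (−0.71), Hnrnpc in DC (−0.54), and MkP for Elavl1 (1.60) and Fmr1 (−1.04).

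Types that neighbour each other in the order of a member are close because the order puts them side by side, so their differences are a description and are not set against other genes. In the 60 such pairs the log2 differences lay between 0.00873 and 0.65 for Hnrnpa2b1, 0.00354 and 0.40 for Hnrnpc, 0.0202 and 0.67 for Elavl1, and 0.00372 and 0.63 for Fmr1, and no pair passed the limma test (0 also at an unadjusted p under 0.05). The 2 libraries of a type differed by more than 1.5-fold in 3 of 16 types for Hnrnpa2b1, 5 for Hnrnpc, 9 for Elavl1 and 5 for Fmr1, and at most by 3.17-fold, 1.77-fold, 2.15-fold and 1.80-fold. In each of LT.HSC, ST.HSC, MPP, LMPP, CMP, GMP and MEP, replicate 1 had more Hnrnpa2b1 and Hnrnpc than replicate 2, and less Elavl1. The Elavl1 difference was small in LT.HSC (347 and 362). Whether these replicates share a batch was not tested. Over all 16 types, the library with more Hnrnpa2b1 had less Elavl1 in 12.

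As a description over 16 type means of log2(value + 1), Hnrnpa2b1 and Hnrnpc correlated at r = 0.84, and the 5 other pairs of members at 0.08 to 0.45. With CPM the top pair was Hnrnpc and Fmr1 (0.63, against 0.22 with the deposited scaling), Hnrnpa2b1 and Hnrnpc stood at 0.57, and the 4 other pairs lay between 0.18 and 0.51. These means share libraries, depth and scaling. Among 10364 genes with a mean of 50 or more, the patterns most like Hnrnpa2b1 were those of Oaz1 (r = 0.93), Psma3 (0.91) and Cox6a1 (0.90), and most like Hnrnpc those of Psmb1 (0.97), Mrpl51 (0.96) and Uqcr10 (0.95). The nearest to Elavl1 were Ubqln1 (0.93), Umad1 (0.91) and Asnsd1 (0.90), and to Fmr1 were Tmem131 (0.90), Swt1 (0.90) and Gpcpd1 (0.89). With CPM, r fell to 0.75 for Oaz1, 0.53 for Psma3, 0.77 for Cox6a1 and 0.72 for Gpcpd1. For the rest of these nearest genes it lay between 0.87 and 0.98. Cbx3, whose start lies 105 bases from that of Hnrnpa2b1, correlated with it at r = 0.39. Cbx3 was 17892 and 14924 in B_cell, higher than in the other types by 1.65 (limma adjusted p = 3.23e-06), as Hnrnpa2b1 was. So were 4698 of all 17165 genes tested. In Monocyte, where Hnrnpa2b1 was nearly as high as in B_cell, Cbx3 was 5225 and 4274, and in CMP and GMP the library with more Hnrnpa2b1 had less Cbx3 (5967 and 10496 in CMP, 8938 and 15307 in GMP). Elavl1 and Ccl25 correlated at r = 0.21 (0.63 with CPM). These values were not particular to neighbours. Ccl25 stood at 0.19 (0.85 with CPM) with Hnrnpc, 0.47 (0.82) with Fmr1 and −0.07 (0.23) with Hnrnpa2b1. Cbx3 stood at 0.50 with Fmr1, 0.28 with Hnrnpc and −0.05 with Elavl1.

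In the atlas, Fmr1 RNA was mostly above its input level after precipitation with the m6A antibody, and Hnrnpa2b1 RNA mostly below. The log2 IP value minus the log2 input value of Fmr1, with each table scaled by TMM, was above 0 in 31 of 32 library pairs, with a median of 1.69. Within each pair it ranked at a median percentile of 84.0 among tested genes, and no lower than 60.6 but for 1 pair. In that pair, LT.HSC 1, it was −4.33, from 12 IP counts, whereas LT.HSC 2 had 1020.0 counts and a value of 2.33. IP and input tables were scaled separately, so these levels are a description.

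Hnrnpa2b1 lay below 0 in most pairs, above it in 4 of 32, with a median of −0.79 and a median percentile of 23.9. B_cell was lowest with −2.46 and −3.05, and Monocyte next with −1.996 and −2.06, apart from the 28 other library pairs, which lay between −1.64 and 0.34. Input is subtracted here, and these types also had the highest Hnrnpa2b1 inputs. Within most types the library with more input had the lower value, as in CMP (−1.21 and 0.17), GMP (−1.45 and −0.0076) and MPP (−0.65 and 0.34). B_cell and CD8 went the other way. The part of the input level in these differences was not tested. Hnrnpc was above 0 in 4 pairs (median −0.37), and Elavl1 in 12 (median −0.25). Elavl1 had its highest mean in LT.HSC (0.94 ± 0.39, SD, n = 2) and its lowest in DC (−1.24 ± 0.07). In the wild-type pairs of the Mettl3 set, Hnrnpa2b1 was above 0 in 9 of 14, with a median of 0.085 and a median percentile of 52.3. That set lacks B_cell, Monocyte, Erythroid and DC, the types with the lowest Hnrnpa2b1 means in the atlas. For the types that it holds, the atlas means lay between −0.73 (GMP) and −0.15 (MPP). Its highest wild-type value, 1.14, was that of ST.HSC 1, whose IP library held few reads of these genes. The difference between the sets was not tested.

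Between types, the IP minus input difference of Hnrnpa2b1 varied (limma F test, adjusted p = 0.00712), whereas 22.4% of all tested genes passed. Elavl1 (adjusted p = 0.112), Hnrnpc (0.224) and Fmr1 (0.593) did not. Set against the other 15 types, Hnrnpa2b1 was lower in B_cell, with a difference of −2.03 (SE 0.39, limma adjusted p = 0.00242), and Fmr1 lower in LT.HSC, with −2.71 (SE 0.77, adjusted p = 0.0204), against a background of 2.93% of genes and types. The Fmr1 value rests on 1 library: without IP LT.HSC 1 it was 0.21 (adjusted p = 0.885). Without IP B_cell 2 the Hnrnpa2b1 difference was −1.57 (adjusted p = 0.143). Monocyte missed the threshold for Hnrnpa2b1, with −1.25 (adjusted p = 0.0527), and passed it in 13 of 64 fits that left out 1 library (adjusted p between 0.0224 and 0.291 over all 64). Cbx3 was lower in B_cell as well, with −2.18 (limma adjusted p = 0.00205), as were 466 of all 19921 genes tested.

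**Figure D3:**
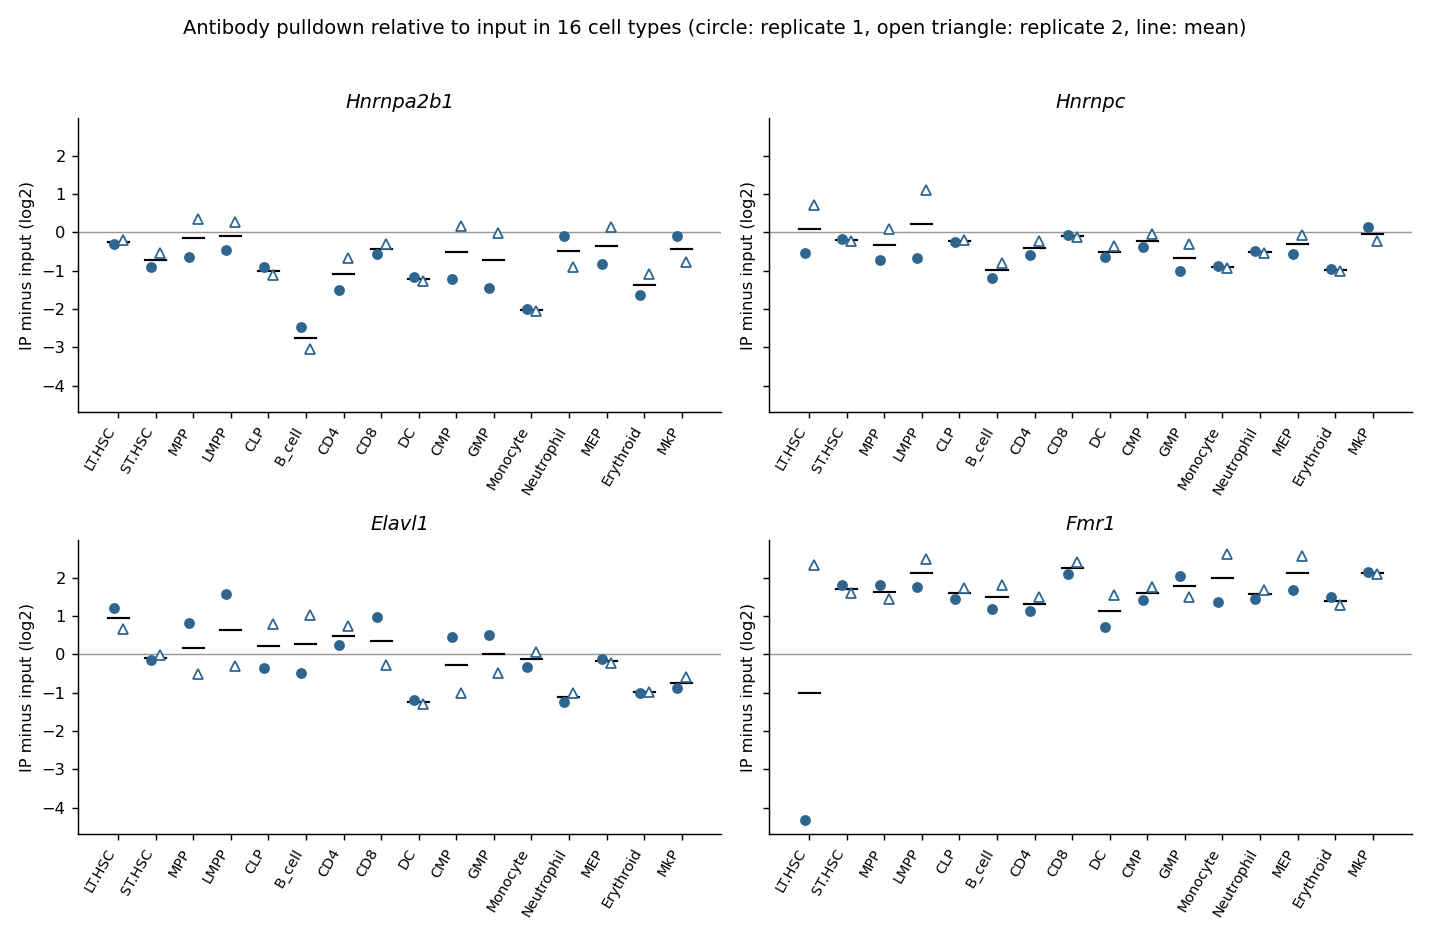
Log2 IP minus log2 input of the 4 genes in the 16 wild-type cell types, with 2 library pairs per type (circle, replicate 1; triangle, replicate 2; line, mean). Fmr1 lies above 0 in every pair but LT.HSC 1, at −4.33, and Hnrnpa2b1 is lowest in B_cell and Monocyte.

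METTL3 is the enzyme that writes m6A, and its deletion was set against wild type in 7 types. None of the 4 genes changed in the input RNA averaged over 7 types. Hnrnpa2b1 ranged from 6088 to 54119.7 (median 19377) in Mettl3 -/- libraries, and from 8962 to 60521 (median 22738) in wild type, with a mean log2 difference of −0.02 (SE 0.24, limma adjusted p = 0.962). Hnrnpc differed by 0.15 (SE 0.23, adjusted p = 0.716), between 2196 and 10957 (median 3990) in Mettl3 -/- and 1775 and 13255 (median 3395) in wild type. Elavl1 ranged from 686 to 3604 (median 2076) in Mettl3 -/- and from 1261 to 5370.5 (median 1910) in wild type, a difference of −0.19 (SE 0.16, adjusted p = 0.492). The ranges over all types overlapped broadly for these 3 genes. Within single types, Hnrnpa2b1 was below both wild-type libraries in MPP, Hnrnpc above both in GMP, and Elavl1 above in CMP and below in LT.HSC and MEP. Over all genes, 11.6% to 20.7% lay above and 12.0% to 26.5% below in a type. The background was 7.24% of genes higher and 2.89% lower.

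Fmr1 had the largest difference of the 4, which did not pass the correction: −1.03 (SE 0.46, limma adjusted p = 0.162), with a median of 60.2 in Mettl3 -/- and 82.4 in wild type. In LT.HSC it was 55.7 and 64.8 in Mettl3 -/- libraries, against 224 and 89.1 in wild type, and in MPP 44.1 and 22.4 in Mettl3 -/-, against 72.1 and 107 in wild type. In MkP it was 67.0 and 75.3 in Mettl3 -/-, against 116 and 76.8 in wild type. In these 3 types the Mettl3 -/- libraries lay below both wild-type libraries, as did 22.2%, 26.5% and 20.1% of all tested genes. In CMP (105 and 40.2 in Mettl3 -/-, 54.7 and 72.8 in wild type), GMP (73.3 and 47.9 in Mettl3 -/-, 64.7 and 103 in wild type) and MEP (150.2 and 38.5 in Mettl3 -/-, 80.3 and 52.7 in wild type) the genotypes overlapped. The value of 224 came from wild-type input LT.HSC 1, a library of 4.99 M reads. Its Mettl3 value was 5370, against 464 in wild-type LT.HSC 2, and it also held the highest wild-type Hnrnpc value.

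In ST.HSC, Fmr1 was 0 and 85.3 in Mettl3 -/-, against 237 and 84.5 in wild type. The 0 stood in a library of 7.55 M reads, in which 3 reads, the limit a count of 0 allows, equal a value of 3.72. The fitted difference was −3.94 (SE 1.23, limma adjusted p = 0.343), and −0.73 (adjusted p = 1.00) without that library. The mean over 7 types was −0.57 without the library of the 0. Without the second Mettl3 -/- ST.HSC library, when the 0 stood alone for that group, that mean became −1.49 and the ST.HSC difference −7.16. These were the ends of its range over all fits that left out 1 library. Of 28 tests of a member within a type, 0 passed, against 0.404% over all genes and types. The Fmr1 difference in ST.HSC was the sole one with an unadjusted limma p under 0.05. No member differed between types in its response to the deletion (limma F test), and 0.0133% of genes did.

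**Figure D4:**
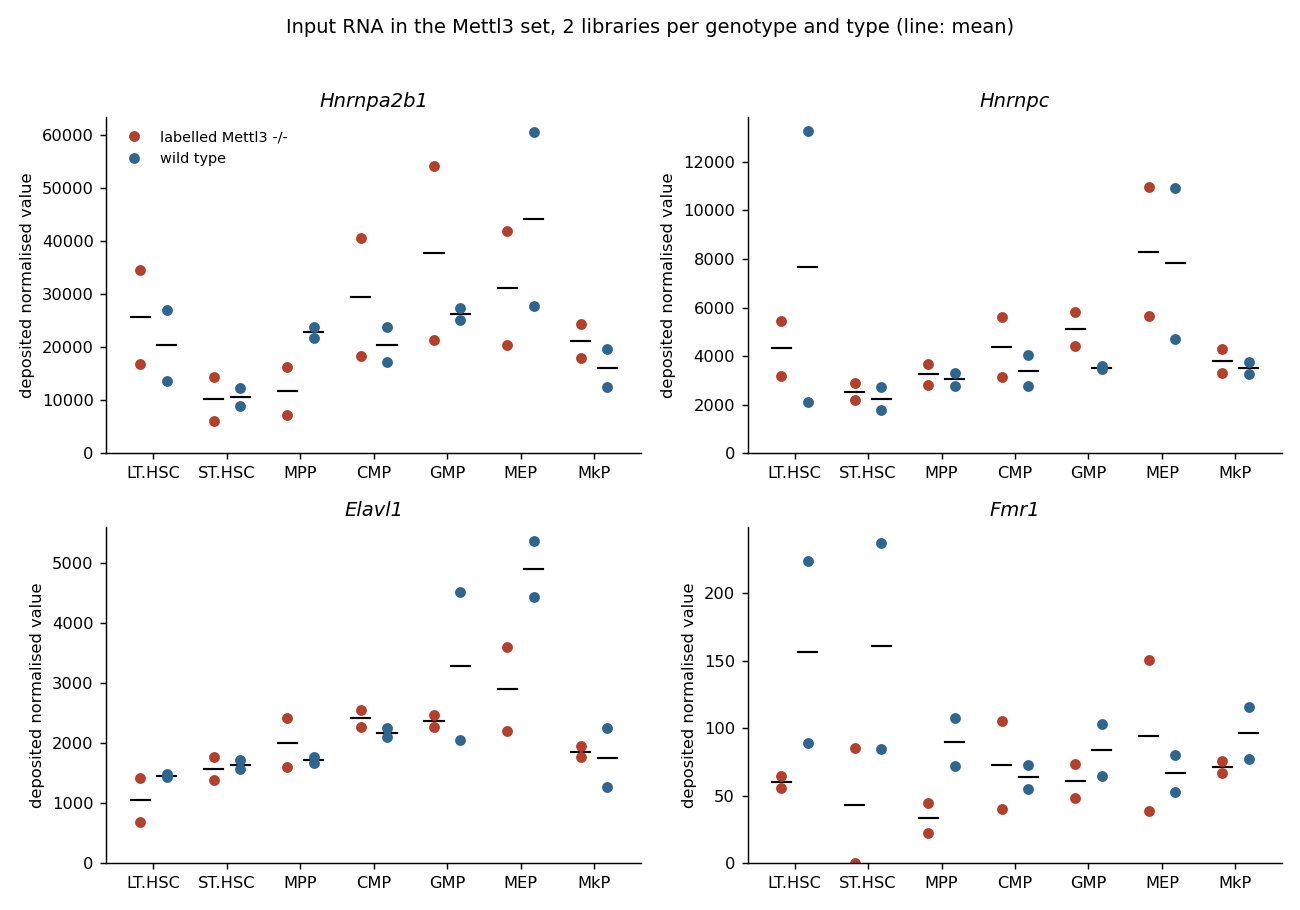
Normalised input values of the 4 genes (linear axis) in 7 cell types, Mettl3 -/- (red, left) beside wild type (right), with 2 libraries each (circles) and their mean as a line. The genotypes overlap in most types, and Fmr1 lies lower in Mettl3 -/- in LT.HSC, MPP and MkP.

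In the precipitated RNA of the Mettl3 set, edgeR's quasi-likelihood test on counts called none of the 4 genes, against 0.441% of genes higher and 0.155% lower. Hnrnpa2b1 had a median of 1473 CPM in Mettl3 -/- libraries and 2269 in wild type, with a log2 difference of −0.60 (SE 0.29, edgeR adjusted p = 0.438). It was lower without overlap in CMP (1299 and 1534 in Mettl3 -/-, against 3665 and 2340.4 in wild type), MPP (1310 and 581 in Mettl3 -/-, against 3502 and 1942 in wild type) and MkP (1269 and 946 in Mettl3 -/-, against 2653 and 2656 in wild type). Hnrnpc was lower without overlap in MEP, MPP and MkP and higher in LT.HSC, and Elavl1 lower in MPP. Of all genes tested, 20.1% were lower without overlap in CMP, 28.8% in MEP, 23.9% in MPP and 9.06% in MkP, and 37.6% higher in LT.HSC. Elavl1 differed by −0.35 (adjusted p = 0.882), Hnrnpc by −0.02 and Fmr1 by 0.21 (both adjusted p = 1.00). The wild-type IP libraries LT.HSC 1 and ST.HSC 1 held few reads of these genes, with 670.0 and 376 counts of Hnrnpa2b1. By this test no gene differed between types in its IP response (0%), with 742 genes at an unadjusted p under 0.05, no member among them.

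IP minus input differed between the genotypes by −0.63 for Hnrnpa2b1 (SE 0.31, limma adjusted p = 0.978), −0.29 for Hnrnpc, −0.20 for Elavl1 and 0.98 for Fmr1 (SE 0.67, adjusted p = 0.978). Limma called 0 of 17432 genes here (0%), with 786 at an unadjusted p under 0.05. The direction of the first 3 turned when libraries were scaled to their totals (0.32, 0.66 and 0.74). Fmr1 was above 0 in 14 of 14 Mettl3 -/- library pairs and 12 of 14 wild-type pairs, with medians of 2.43 in Mettl3 -/- and 1.70 in wild type. Its highest value, 5.25 in Mettl3 -/- ST.HSC 1, came from an input of 0. Its lowest, −1.17 in wild-type ST.HSC 1, came from 0.117 CPM in an IP library with few reads of these genes. Hnrnpa2b1 was above 0 in 1 of 14 Mettl3 -/- pairs and 9 of 14 wild-type pairs. A loss shared by all genes would be removed by this scaling.

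Relatives of the members gave a wider view. Of 28 hnRNP family genes, 24 differed among the atlas types, as did 11 of 11 tested ELAVL family genes and other binders of AU-rich elements (13 listed) and 10 of 11 genes of the FMR1 family and its partners, near the 92.8% of all genes. The largest contrasts among those named by level were Zfp36l1, a decay factor for AU-rich messages (mean 7489 in B_cell, 11.3 in GMP, adjusted p = 8.07e-11), Cpeb4, a cytoplasmic polyadenylation factor (1659 in Erythroid, 0.501 in GMP, adjusted p = 7.47e-10), and Hnrnpll, a splicing factor of lymphocytes (626 in MkP, 11.1 in B_cell, adjusted p = 4.36e-09). The stress granule gene G3bp1 was 10957 in MkP and 1130 in Monocyte (adjusted p = 2.61e-06). Hnrnpk (adjusted p = 0.225) and Fxr2, a paralog of Fmr1 (0.236), were not called. These p-values are from the limma F test.

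In Mettl3 -/- inputs, 5 of the 28 hnRNP genes changed, 1 higher and 4 lower (7.24% and 2.89% of all genes tested), with a list median of −0.25 against −0.06 over all genes tested. Pcbp1, a poly(C)-binding protein, was higher by 1.02 (limma adjusted p = 0.00839). Rbmx (−1.68, adjusted p = 0.00624), a splicing regulator that binds RNA at m6A sites, and Hnrnpul1 (−0.87, adjusted p = 0.0126), Hnrnpdl (−0.81, adjusted p = 0.0154) and Hnrnph1 (−0.70, adjusted p = 0.0485) were lower. Of 11 tested AU-rich element binders, 1 changed, the decay factor Khsrp (−0.91, adjusted p = 0.0276, beside 2.89% of all genes lower), with a list median of −0.18. Of 11 FMR1 family and partner genes, 1 changed, the paralog Fxr1 (−0.99, adjusted p = 0.0199, beside the same 2.89%), with a list median of −0.36. No gene of the 3 lists was called in the mean IP counts or mean IP minus input of the Mettl3 set, or in the Igf2bp2 set. Among the atlas types, IP minus input differed (limma F test) for 11 of 28 hnRNP genes. It also differed for 3 of 12 AU-rich element binders and 5 of 11 FMR1 family and partner genes, beside 22.4% of all genes tested.

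IGF2BP2 binds m6A-marked messages and stabilises them, and its deletion in LT.HSC was examined in the same way. Hnrnpa2b1 had 2039 and 4349 counts (436 and 669.7 CPM) in Igf2bp2 -/- LT.HSC, against 11660.0 and 3047 (583 and 619 CPM) in wild type, a log2 difference of 0.21 (SE 0.42, edgeR adjusted p = 0.983). Hnrnpc had 279 and 282 CPM in Igf2bp2 -/-, against 239 and 192 in wild type, a difference of 0.76 (SE 0.43, adjusted p = 0.863). The Igf2bp2 -/- libraries were thus higher without overlap for Hnrnpc, as for 9.73% of all genes tested, but not beyond the error of the fit. Fmr1 had 86 and 9 counts (18.4 and 1.39 CPM) in Igf2bp2 -/-, against 525 and 149 (26.3 and 30.3 CPM) in wild type, a difference of −0.97 (SE 1.26, adjusted p = 0.971). It was lower without overlap, as were 30.1% of all genes tested. Elavl1 differed by −0.43 (SE 0.82, adjusted p = 0.983), from 38 and 292 counts in Igf2bp2 -/- against 917 and 188 in wild type. edgeR called 0 of 12221 genes in this set (0%), with 777 at an unadjusted p under 0.05, and DESeq2 called 151, none of them a member.

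After 3 h of 4sU, the T-to-C ratio of Hnrnpa2b1 was low in every library. It was 0.550% and 0.119% in LT.HSC, 0.411% and 0.721% in ST.HSC, 0.569% and 0.730% in MPP, 0.458% and 0.479% in CMP, 0.278% and 0.271% in GMP, and 0.494% and 0.410% in MEP. These ratios lay below the median gene of their library in 12 of 12 libraries, and their median stood at percentile 28.4 of all genes. Hnrnpc ranged from 0.625% to 2.13% (median 1.40%) and was above the median gene in 12 of 12 libraries, at percentile 66.3. In each of the 12 libraries Hnrnpc was therefore above Hnrnpa2b1, which was not tested.

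Fmr1 had a median of 1.67% (percentile 76.7) and was above the median gene in 10 of 12 libraries. It was 1.74% and 1.72% in LT.HSC, 0.593% and 1.12% in ST.HSC, 2.01% and 2.01% in MPP, 1.504% and 1.68% in CMP, 1.83% and 0.409% in GMP and 1.67% and 0.131% in MEP, so the 2 libraries of GMP and of MEP differed most. Elavl1 ranged from 0.376% to 1.92% (median 1.04%) and was above the median gene in 9 of 12. The median gene itself ran from 0.309% to 1.71% between libraries. No member differed among the 6 types, with limma adjusted p of 0.881 for Hnrnpa2b1, 0.813 for Hnrnpc, 0.717 for Elavl1 and 0.730 for Fmr1, in a test that called no gene (0% of 13909), with 1695 genes at an unadjusted p under 0.05 and no member among them. Single types against the other 5 gave 0.0467% of genes and no member.

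**Figure D5:**
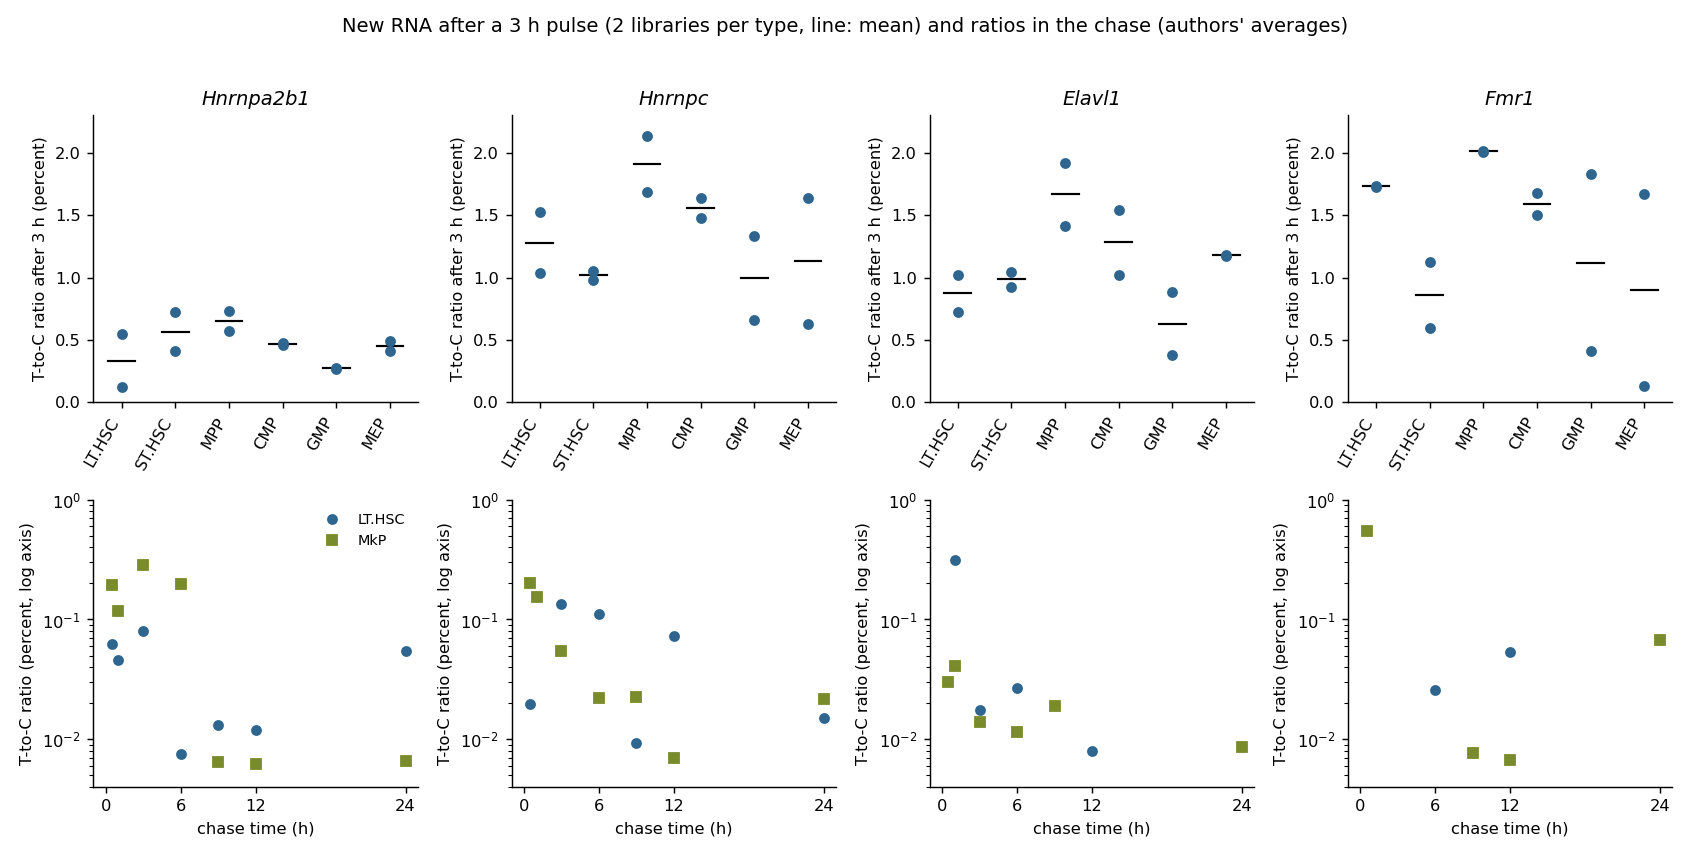
Top: T-to-C ratio in percent after 3 h of 4sU for the 4 genes in 6 cell types (a circle per library, with the mean of a type as a line). Bottom: T-to-C ratio in percent (log axis) at 7 chase times in LT.HSC and MkP, as the authors' averages (the samples hold 2 per time for LT.HSC and 1 for MkP); times with no value are not drawn. Hnrnpa2b1 lies at or below 0.730% at 3 h, and in MkP it is 0.197% at 6 h and 0.00650% at 9 h of chase. The latter is near the low end of the genes listed at that time (percentile 7.16).

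In the chase, Hnrnpa2b1 in MkP was 0.196%, 0.117%, 0.285% and 0.197% at 0.5, 1, 3 and 6 h, and 0.00650%, 0.00617% and 0.00660% at 9, 12 and 24 h. The first 4 values lay above the median gene at their time (0.0697%, 0.0526%, 0.0446% and 0.0165%), and the last 3 below it (0.0157%, 0.0282% and 0.0158%). Those last 3 stood near the low end, at percentiles 7.16, 3.55 and 9.51 of the genes listed. In MkP the genes listed ran from 2225 at 12 h to 8135 at 1 h, so the median gene came from a changing set. In LT.HSC Hnrnpa2b1 was lower at the early times, with 0.0621%, 0.0458% and 0.0794% at 0.5, 1 and 3 h. It was then 0.00758%, 0.0131% and 0.0120% at 6, 9 and 12 h and 0.0541% at 24 h. Hnrnpc in MkP was 0.202%, 0.154%, 0.0549%, 0.0219%, 0.0226%, 0.00697% and 0.0217% over the 7 times. In LT.HSC it was 0.0198% at 0.5 h, had no value at 1 h, and was 0.135%, 0.111%, 0.00920%, 0.0722% and 0.0150% at 3 to 24 h, with no steady order.

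Elavl1 in MkP stayed between 0.00857% and 0.0408%, with no value at 12 h, and in LT.HSC it was 0.314% at 1 h, 0.0176% at 3 h, 0.0266% at 6 h and 0.00791% at 12 h. Fmr1 was listed at 2 of 7 times in LT.HSC, with 0.0259% at 6 h and 0.0532% at 12 h, and at 4 of 7 in MkP, with 0.545% at 0.5 h, 0.00763% at 9 h, 0.00672% at 12 h and 0.0675% at 24 h. The chase tables were deposited as averages, but the samples hold 2 per time for LT.HSC and 1 for MkP, so the MkP values may each rest on 1 sample. They come with no replicate values and no depth, so no decay rate and no test is given.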

How the data were processed

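The members and gene lists were chosen with earlier results of these data known. Per the labels, 100 ng of total RNA per sample went into precipitation with an anti-m6A antibody. Of tools, kallisto, Trimmomatic and fastp appear in the submitters' processing notes, with the assembly GRCm38; the sources used here give no version, role, strand setting or treatment of reads shared by gene copies. The authors deposited a normalised signal for input libraries, in which 100% of values were whole multiples of a step per library within 0.1 of a read (in GMP 2 of the atlas the step lay near 1), so whole reads were recovered for an alternative. They deposited counts for atlas IP and Igf2bp2 libraries and estimated counts with fractions for Mettl3 IP, rounded here. SLAM-seq values were deposited as a fraction, printed as percent; their depth is unknown and the chase tables are named averages, with 2 samples per time listed for LT.HSC and 1 for MkP.

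Inputs were tested with limma 3.58.1 (R 4.3.3) on log2(value + 1), which understates changes near 0, for genes of at least 10 in at least 2 libraries, with trend (and robust moderation in the atlas). IP minus input used 1 limma fit over both tables after TMM scaling within each. Mettl3 IP and Igf2bp2 counts were tested with edgeR 4.0.16 (quasi-likelihood, filterByExpr, TMM), with DESeq2 1.42.0 as an alternative, and new RNA by limma, after adding 0.1 to the percent and taking log2, where 6 or more libraries were above 0. All libraries of a table shared the spread. P-values were adjusted over all genes by Benjamini-Hochberg, with a threshold of 0.05. The scripts were tested on simulated data. Intervals and limits of counts cover counting error only. Named besides the members were, of each list, the 4 genes with the highest and the 4 with the lowest mean level, or the 2 highest and 2 lowest called changes (a list gene outside this rule was named after its values were seen), and the 3 genes most like a member with a mean of at least 50. Same-numbered libraries deviated together in some pairs of types only. Over 120 pairs of atlas input types, r had a median of 0.003 and a highest value of 0.34, with 16 over 0.1 and 6 under −0.1. Of 7 Mettl3 input pairs, 2 had r over 0.1 and 1 had r under −0.1. Numbers were not used as pairs in the main fits, and a replicate block was fitted as an alternative. Promoter sequences are from RefSeq (GRCm38.p6), where all 4 members matched.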

Additional observations from a re-analysis of the deposited data

Results flagged for a closer look

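The IP minus input difference of Hnrnpa2b1 varied among the 16 atlas types (limma F test, adjusted p = 0.00712). In B_cell, where its input was highest, it was lower than in the other 15 types, with a log2 difference of −2.03. Fmr1 was lower in LT.HSC, with −2.71, a value set by the IP library LT.HSC 1 with 12 counts, against 1020.0 counts in LT.HSC 2. These 3 results were listed because a difference between cell types was tested and passed.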

How the results depend on the processing

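Of the 18 called atlas differences, scaling to library totals reversed 6, to −0.18, −0.0326 and −0.0455 for Hnrnpa2b1, Elavl1 and Fmr1 in Erythroid, −0.94 and −2.29 for Hnrnpa2b1 and Hnrnpc in Monocyte and 0.11 for Hnrnpc in ST.HSC. The 60 pairs of neighbouring types were set by each member's order in the deposited values, where 0 passed. With library totals 14 of them were called, but on that scale these types need not neighbour each other. This count is therefore a description of the changed order. In atlas IP minus input the scaling to totals called 3 members (main 1) and 9091 genes (main 4457) among types, and 5 member differences (main 2) and 22202 over all genes (main 9329) for single types. The Mettl3 IP minus input means turned to 0.32, 0.66 and 0.74 for Hnrnpa2b1, Hnrnpc and Elavl1. This scaling was chosen for the inputs after seeing the data, as was leaving out the Monocyte libraries or 3 sparse Mettl3 IP libraries (wild-type LT.HSC 1 and ST.HSC 1, and Mettl3 -/- MEP 1).

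No filter on low values gave 28 genes for the difference of Mettl3 input effects among types (main 2), 439 for Mettl3 IP (main 104), 3 for Mettl3 IP minus input (main 0) and 44 for Igf2bp2 (main 0). On recovered reads edgeR called 166 genes for Mettl3 inputs by type (main 425) and 0 for the difference among types, and Hnrnpa2b1 was 0.0367; Hnrnpc in Monocyte was then no longer called (0.40), nor with TMM scaling, nor was Hnrnpc in ST.HSC with no filter (−0.66) or without the Monocyte libraries (−0.62). DESeq2 called 899 genes for Mettl3 IP, with Hnrnpc at 0.12 (0.17 with upper-quartile scaling), and 151 for Igf2bp2. Without the 3 sparse Mettl3 IP libraries 217 genes were called and Fmr1 was −0.00217. For new RNA, a pseudocount of 1 percent called 12 genes among types (main 0) and 64 for single types (main 39), requiring all 12 libraries above 0 called 2, and median-centred ratios 0. With the replicate number as a block, 651 genes were called for Mettl3 inputs by type, 8 for Igf2bp2 and 2 for new RNA in single types, and Hnrnpa2b1 IP minus input in Monocyte (−1.25) passed with adjusted p = 0.0484; it changed no other call of a member. The causes were not tested.

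Leaving out 1 library at a time gave 1 to 2 members and 3598 to 6951 genes for IP minus input among types, and 1 to 4 members and 7537 to 14514 over all genes for single types, the highest without IP LMPP 1. Fmr1 in LT.HSC ranged from −5.52 without IP LT.HSC 2 to 0.21 without IP LT.HSC 1. For Mettl3 inputs it gave 983 to 2770 genes for the mean (main 1522), 202 to 2158 by type and 0 to 78 for the difference among types, the highest each without KO ST.HSC 2, where each of these 3 tests called 1 member, Fmr1, against 0 without any other library. By type, 2004 genes were called without WT LT.HSC 2. Hnrnpa2b1 ranged from −0.12 to 0.0729 and Hnrnpc from −0.0424 to 0.34 in that mean. Mettl3 IP gave 116 to 381 genes, with Fmr1 from −0.20 to 0.38 and Hnrnpc from −0.31 to 0.0575. Mettl3 IP minus input gave 0 to 11 genes, with Elavl1 from −0.38 to 0.0424. Igf2bp2 had Elavl1 from −1.77 to 0.26. New RNA gave 0 to 49 genes among types and 0 to 1360 for single types. A lone sample left in a group was assumed to vary like the other groups. Direction and side of the threshold held for 218 of 242 values of single genes under the other alternatives and 1204 of 1260 with 1 library left out, and 127 of 148 and 769 of 840 counts stayed within 1.5 times.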
